A study of Homo sapiens with 36 samples.

Results

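The mitochondrial ribosomal RNAs are the products of MT-RNR1 (ENSG00000211459), the RNA of the small mitoribosomal subunit, and MT-RNR2 (ENSG00000210082), the RNA of the large subunit. These 2 genes of the 60675 in the count table, and of the 37 genes of the mitochondrial genome in it, were chosen by name with their levels and changes in these same libraries already known. Their levels, their ratio and their changes are therefore given as a description with no test. Tests were made on other genes of the mitochondrial genome and on nuclear genes.

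The mitochondrial genome is a circle that carries both ribosomal RNAs, the transfer RNAs (tRNAs) and mRNAs for subunits of the respiratory chain. One strand is copied into long transcripts that start just ahead of MT-RNR1 and run through MT-RNR2 into the mRNA genes, and tRNAs between the genes are cut out, which frees the rRNAs and mRNAs. The rRNAs then receive base modifications and join proteins that are encoded in the nucleus, imported and assembled into the mitoribosome, which makes only the proteins of this genome. Mitochondrial mRNAs on the main coding strand carry poly(A) tails, whereas the rRNAs end in very short adenylate tails.

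The libraries came from 2 human cell lines, SW1783 (astrocytoma) and HT29 (colorectal adenocarcinoma), in 12 groups of 3 replicates, all collected after 24 h. In batch A of each line, cells received vehicle or wortmannin at 10 µM, a PI3K inhibitor that was the positive control. In batch B, cells received vehicle or a water extract of the processed root of *Aconitum carmichaeli* Debeaux (ACD) at 20 µg/mL (low), 100 µg/mL (medium) or 500 µg/mL (high). The vehicle is 0.1% DMSO in the labels. The higher share of DMSO in the study's methods is that of the stock, which was diluted into the medium of each well. Each line is a single established culture, and nothing in the labels says that replicates were separate cultures, so errors describe the spread between these libraries, which may be technical. Per the study's methods, SW1783 grew in Leibovitz's medium without carbon dioxide and HT29 in DMEM with it, plated at different cell numbers. Differences between the lines therefore cannot be told apart from differences in medium, gas and plating density.

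Total counts were 18863863 to 26436866 per library in SW1783 and 15941254 to 33866643 in HT29. The smallest count of either rRNA in any library was 13376, which has a counting error of 0.865%, so that replicate spread and not depth limited the precision. The epithelial genes EPCAM, CDH1 and VIL1 had median levels of 534.0, 450.9 and 177.6 CPM in HT29 (CPM is the usual scaling of a count to its library's total) and at most 0.0431 in SW1783. KRT18, also an HT29 marker here, had 3607 CPM in HT29 and 206.3 CPM in SW1783, and the remaining KRT20, CDX2 and CDX1 had medians of 252.5, 6.01 and 1.22 CPM in HT29 and of 0 in SW1783. In SW1783, VIM and COL1A2 had medians of 4534 and 2022 CPM, while the astrocyte genes GFAP, S100B and AQP4 were at or near 0 with medians of 0.0879, 0.0828 and 0 CPM. SLC1A3 had a median of 32.1 CPM in SW1783. CD44, also an SW1783 marker here, had 2694 CPM in SW1783 and 527.3 CPM in HT29. Of the 6 SW1783 markers tested at the SW1783 high dose, SLC1A3 and COL1A2 were called lower (log2 change -2.45 ± 0.11 and -1.89 ± 0.05), where 9.52% of all genes were. At the medium dose SLC1A3 alone of 4 tested was called lower, where 1.47% of all genes were. From medium to high both SLC1A3 and COL1A2 were called lower (-1.51 and -1.43), where 5.59% of all genes were. KRT18 was called lower at the SW1783 high dose (-1.55 ± 0.05) and from medium to high (-1.14 ± 0.05). In HT29, 0 of 7 HT29 markers were called at any dose (at most 3 with an unadjusted p under 0.05, 0 by edgeR). Of all genes tested there, 1.28% and 1.61% were called higher and lower at the high dose. The shares were 0.431% and 0.406% at the medium and 0.149% and 0.168% at the low dose, so that 0 of 7 is near the background. The part of these marker changes in the rRNA results was not tested. HT29 high replicate 2 stood apart from the other 2 libraries of its group, with a mean squared count difference of 57.3 to 61.6 times sampling noise against 9.67 between those 2, and the changes of the rRNAs and mRNAs against vehicle at the HT29 high dose are given with and without it. To a lesser degree, replicate 1 lay apart in HT29 vehicle of batch A (13.3 and 16.8 against 4.33) and of batch B (13.4 and 16.9 against 4.47). It did so too at the HT29 low dose (14.5 and 20.8 against 8.90). A batch A vehicle and the batch B vehicle of equal number differed by 2.42 to 2.59 times sampling noise, less than any replicates within a group did (2.60 or more). In HT29, MT-ND1 had 4576, 3177 and 4174 CPM in vehicle of batch A and 4500, 3122 and 4180 CPM in that of batch B. The vehicle groups of the batches may therefore not be independent of each other, and their likeness is not a replication.

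Both genes are read in the direction of the plus strand of the reference (GRCh38, GENCODE v44). MT-RNR1 spans positions 648 to 1601 (954 bases) and MT-RNR2 spans 1671 to 3229 (1559 bases). Each abuts a tRNA gene at both ends with no base between, and MT-TV alone separates one from the other. The ends are shown because they are the points at which the rRNAs leave the common transcript. Capitals mark 40 bases of the rRNA and lower case marks 12 bases of the neighbouring tRNA gene. The windows are MT-TF to MT-RNR1 at chrM:636-687, MT-RNR1 to MT-TV at chrM:1562-1613, MT-TV to MT-RNR2 at chrM:1659-1710 and MT-RNR2 to MT-TL1 at chrM:3190-3241.
MT-RNR1 start: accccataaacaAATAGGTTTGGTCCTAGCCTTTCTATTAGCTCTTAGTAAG
MT-RNR1 end: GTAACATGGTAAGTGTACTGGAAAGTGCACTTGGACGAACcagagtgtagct
MT-RNR2 start: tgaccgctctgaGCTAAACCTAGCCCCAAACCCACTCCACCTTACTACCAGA
MT-RNR2 end: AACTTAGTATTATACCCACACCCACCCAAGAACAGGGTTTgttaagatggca

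The rRNAs shared a high content of A, 33.0% in MT-RNR1 and 35.1% in MT-RNR2, with longest runs of 6 and 7 A. Among the 13 mitochondrial mRNAs the content of A was 19.6% in MT-ND6 to 38.6% in MT-ATP8, and the longest run of A was 8, in MT-ND5. The tRNAs that flank the rRNAs could not be followed. Of the 22 mitochondrial tRNA genes, which are 59 to 75 bases long, 13 had no count in any library, and the largest count of any of them was 8.

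MT-RNR1 was low in both lines without ACD and rose manifold with it, at different doses. In SW1783 vehicle of batch B it had 676.2, 668.6 and 706.6 CPM in the 3 replicates. At the low dose it had 4446, 4039 and 3952 CPM, at the medium dose 13608, 14516 and 13968 CPM, and at the high dose 12477, 12272 and 12651 CPM. Each ACD group lay wholly above vehicle, and the high-dose libraries lay wholly below those of the medium dose. The log2 fold changes against vehicle (± SE of the DESeq2 fit) were 2.64 ± 0.05, 4.47 ± 0.05 and 4.30 ± 0.05, that is 6.22-fold, 22.2-fold and 19.7-fold. Levels are relative to all other RNA of a library, and in bulk samples fewer cells and less RNA per cell cannot be told apart. They are counts in mRNA libraries, and the rRNAs have very short tails. A change in the capture of an rRNA therefore cannot be told apart from a change in its amount, and the same holds for the ratio of the pair.

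In HT29 the same RNA had 1380, 1273 and 1288 CPM in vehicle of batch B. At the low dose it had 1161, 1223 and 1043 CPM, which was below every vehicle library. At the medium dose it had 3359, 3448 and 2970 CPM and at the high dose 28876, 28149 and 27281 CPM, with no overlap between any of these groups. The log2 fold changes were -0.22 ± 0.09, 1.32 ± 0.09 and 4.57 ± 0.09, and the last of these is 23.7-fold. Replicate 2 of the high dose lay between the other 2 replicates, and the change without it was 4.53.

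MT-RNR2 had more counts than MT-RNR1 in every library and, against vehicle, moved the same way by less at each ACD dose. In SW1783 it had 8547, 8456 and 8894 CPM in vehicle of batch B, and 28823, 26062 and 27013 CPM at the low dose. The medium-dose libraries had 64022, 65966 and 62696 CPM and the high-dose libraries 47142, 45355 and 47919 CPM. As with MT-RNR1, all ACD libraries were above vehicle and the high dose was below the medium dose without overlap. The log2 fold changes against vehicle were 1.70 ± 0.05, 3.01 ± 0.05 and 2.55 ± 0.05, or 3.24-fold, 8.04-fold and 5.87-fold.

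In HT29, MT-RNR2 had 10811, 10123 and 10511 CPM in vehicle of batch B and 10144, 10220 and 8777 CPM at the low dose, and these groups overlapped. The medium dose gave 18414, 18176 and 16626 CPM and the high dose 96298, 92839 and 85442 CPM, each wholly above the group before it. The log2 fold changes were -0.12 ± 0.09, 0.77 ± 0.09 and 3.27 ± 0.09, the last being 9.67-fold, and 3.23 without replicate 2 of the high dose.

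**Figure D1:**
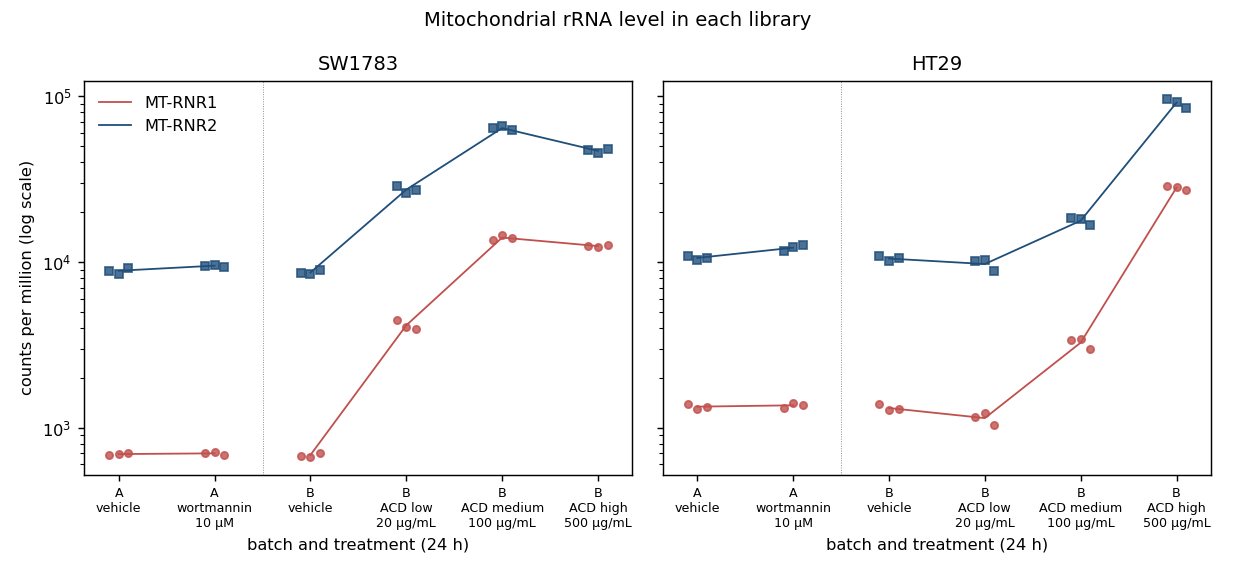
CPM (log scale) of MT-RNR1 (circles) and MT-RNR2 (squares) in each library of SW1783 (left) and HT29 (right). Points are the 3 replicates of a group in order of their number and lines join group means within a batch. In SW1783 both rRNAs climbed from the low dose and were lower at the high than at the medium dose, whereas in HT29 they stayed near vehicle at the low dose and MT-RNR1 reached 28102 CPM on average at the high dose.

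The dose at which the rise took place differed between the lines, each in its own culture conditions. In SW1783, MT-RNR1 had covered 61.3% of its total log2 change by the low dose and 104% by the medium dose, and MT-RNR2 66.5% and 118%. In HT29 the medium dose had brought 28.8% and 23.4% of the total log2 change, and the step from medium to high was the largest, 3.25 ± 0.09 for MT-RNR1 and 2.51 ± 0.09 for MT-RNR2. The same step in SW1783 was -0.17 ± 0.05 and -0.45 ± 0.05. At the high dose both rRNAs together took 11.96% ± 0.63 of all counts in HT29 (SD, n = 3) from 1.18% ± 0.04 in vehicle. In SW1783 the share rose from 0.932% ± 0.025 to 3.14% ± 0.16, 7.83% ± 0.20 and 5.93% ± 0.15 over the low, medium and high doses.

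With wortmannin, MT-RNR1 overlapped vehicle in both lines. In SW1783 it had 679.8, 697.3 and 701.4 CPM in vehicle of batch A and 706.6, 712.4 and 681.2 CPM with wortmannin, and in HT29 the group means were 1339 and 1364 CPM. The log2 fold changes were -0.01 ± 0.02 and -0.03 ± 0.06, and they became 0.02 and 0.03 when CPM of all counts was used. MT-RNR2 rose slightly more, from a mean of 8848 to 9495 CPM in SW1783 and from 10574 to 12189 CPM in HT29, with log2 fold changes of 0.08 ± 0.04 and 0.15 ± 0.06. In HT29 the wortmannin libraries lay above all vehicle libraries on both scales, and in SW1783 they did so in CPM but overlapped after size-factor normalization.

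Ordered by mean level over the 12 groups, both genes gave the same order, from SW1783 vehicle of batch B at the bottom to HT29 high at the top, with HT29 medium at place 8, SW1783 low at 9, SW1783 high at 10 and SW1783 medium at 11. From place 7 upwards no neighbouring groups overlapped for either gene. Below that, the vehicle and wortmannin groups of SW1783 overlapped for MT-RNR1, as did those of HT29. For MT-RNR2 the overlaps in the lower part of the order were between the vehicle groups of SW1783, between SW1783 wortmannin and HT29 low, between HT29 low and HT29 vehicle of batch B, and between the vehicle groups of HT29.

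The ratio of MT-RNR2 to MT-RNR1 counts fell with ACD where both rose, since MT-RNR1, with fewer counts, rose more. In SW1783 vehicle of batch B it was 12.64, 12.65 and 12.59, and in vehicle of batch A 12.97, 12.16 and 13.18. It was 6.48, 6.45 and 6.83 at the low dose, 4.70, 4.54 and 4.49 at the medium dose, and 3.78, 3.70 and 3.79 at the high dose. The ratio fell at each dose with no overlap between groups, also from medium to high, where both levels declined. Per kilobase of gene length the means were 7.73 ± 0.02 in vehicle and 2.30 ± 0.03 in high-dose cells (SD, n = 3).

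In HT29 vehicle of batch B the ratio was 7.83, 7.95 and 8.16, lower than in SW1783. At the low dose it was 8.74, 8.36 and 8.41, above every vehicle library, at the medium dose 5.48, 5.27 and 5.60, and at the high dose 3.33, 3.30 and 3.13. Per kilobase the mean was 4.88 ± 0.10 in vehicle and 1.99 ± 0.07 at the high dose. Vehicle ratios of the lines were far apart (12.62 ± 0.03 and 7.98 ± 0.16 in batch B), and the high-dose ratios were close to each other (3.75 ± 0.05 and 3.26 ± 0.11) but did not overlap. With wortmannin the ratio was above all vehicle libraries of its batch in both lines, with means of 13.57 ± 0.16 in SW1783 and 8.93 ± 0.25 in HT29.

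**Figure D2:**
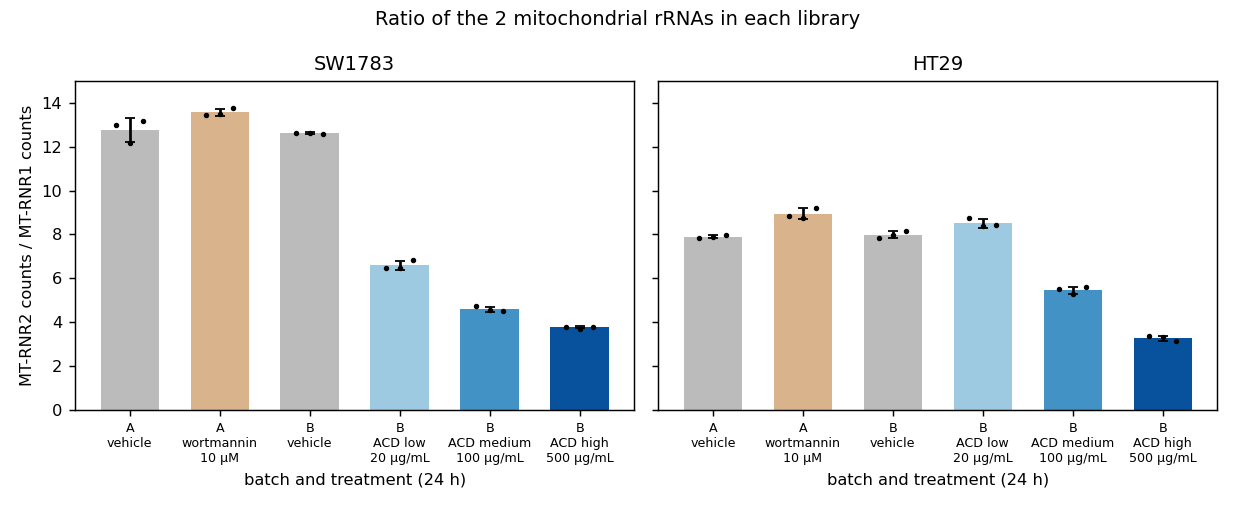
Ratio of MT-RNR2 to MT-RNR1 counts in SW1783 (left) and HT29 (right). Bars are group means, error bars the SD of 3 replicates and points the single libraries. The ratio fell stepwise in SW1783 from the low dose on and in HT29 from the medium dose on, to 3.75 and 3.26 at the high dose.

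The 13 mRNAs of the same genome encode subunits of respiratory complexes and of ATP synthase, and they did not follow the rRNAs. A gene was called when its adjusted p-value was under 0.05 (DESeq2 Wald test, Benjamini-Hochberg over all genes of a contrast) and its change exceeded 1.5-fold. At the SW1783 low dose 2 of 13 were called higher, where 0.101% of all genes tested were, and 0 lower, where 0.0225% were. They are the first mRNA genes after MT-RNR2, with only tRNA genes between. MT-ND1 and MT-ND2, subunits of complex I, changed by 0.76 ± 0.14 (adjusted p = 6.24e-06) and 0.70 ± 0.14 (adjusted p = 5.83e-05). MT-ND1 had 2483, 2331 and 2810 CPM in vehicle and 5102, 3482 and 3949 CPM at the low dose, so that replicate 1 was the highest. Without that replicate the changes were 0.58 and 0.52, below the 1.5-fold limit, and both calls were lost.

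At the medium dose in SW1783, 0 of 13 mRNAs were called higher (2.34% of all genes) and 5 lower (1.47% of all genes). These were MT-CO2 and MT-CO3, subunits of cytochrome c oxidase, with -0.78 ± 0.05 (adjusted p = 3e-46) and -0.74 ± 0.05 (adjusted p = 5.11e-47), MT-ATP6 of ATP synthase with -0.62 ± 0.11 (adjusted p = 1.82e-07), and MT-ND4L and MT-ND4 of complex I with -0.78 ± 0.07 and -0.76 ± 0.09. MT-ND4L overlaps MT-ND4 and MT-ATP8 overlaps MT-ATP6, so that the division of reads within each pair is uncertain. MT-ND1 and MT-ND2 were back at 0.16 ± 0.14 and 0.01 ± 0.14. MT-CO2 had 4816, 4836 and 4848 CPM in vehicle and 2530, 2496 and 2809 CPM at the medium dose, where both rRNAs were at their SW1783 maximum.

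At the high dose in SW1783 no mRNA was called in either direction, where 8.61% and 9.52% of all genes were called higher and lower. Without the fold limit, 7 of 13 had an adjusted p under 0.05, as did 9037 of the 19551 genes tested, which is a near share. An unadjusted p under 0.05 was found for 8, and edgeR called 0. The median log2 change of the 13 was -0.23, against -0.01 over all genes tested. Between high and medium, again 0 were called (4.56% of all genes higher and 5.59% lower). The adjusted threshold alone was passed by 7 of 13 and by 6741 of the 16590 genes tested. An unadjusted p under 0.05 was found for 8, edgeR called 0, and the median was 0.27. There the mRNA median moved up while both rRNAs moved down.

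In HT29 mRNAs were called lower against vehicle only at the high dose, beside the steepest rise of the rRNAs. Of the 13, 8 were called lower (1.61% of all genes) and 0 higher (1.28%). MT-ND4 had 11024, 9409 and 11045 CPM in vehicle and 4009, 3021 and 2373 CPM at the high dose, a log2 change of -1.59 ± 0.21 (adjusted p = 1.57e-11). MT-CO1, MT-CO2, MT-CO3, MT-ATP8, MT-ATP6, MT-ND3 and MT-ND4L were the others, with -0.97 for MT-CO1 to -1.55 for MT-ATP8. MT-ND1 and MT-ND2 had -0.73 ± 0.27 and -0.62 ± 0.22 and were not called (adjusted p = 0.0756 and 0.0647). Without high replicate 2 there were 9 called mRNAs, the added one being MT-CYB (-1.14), and the other 8 had changes of -1.02 for MT-CO1 to -1.72 for MT-ATP8.

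At the HT29 medium dose no mRNA was called (0.431% of all genes higher and 0.406% lower), with 0 by edgeR and 7 with an unadjusted p under 0.05. MT-ND1 had 6189, 6692 and 5187 CPM against 4500, 3122 and 4180 CPM in vehicle, and its log2 change of 0.62 ± 0.27 and that of MT-ND2, 0.65 ± 0.22, had adjusted p-values of 0.315 and 0.110. A fit on these 2 groups alone called both, with 0.62 and 0.65. From medium to high, 10 of 13 were called lower (0.328% of all genes) and 0 higher (0.398%). MT-ND1 and MT-ND2 were then among the strongest, with -1.35 ± 0.27 and -1.27 ± 0.22 (adjusted p = 8.99e-05 and 2.17e-06). The number was 6 with edgeR or without medium replicate 1. The contrasts within a batch share their vehicle or dose groups, so that they are not independent of each other.

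At the HT29 low dose 0 were called (0.149% of all genes higher and 0.168% lower), with 1 at an unadjusted p under 0.05 and 0 by edgeR. With wortmannin 0 were called in SW1783 (1.73% of all genes higher and 0.991% lower) and 0 in HT29 (1.96% and 0.755%). In these wortmannin contrasts edgeR called 0, and 9 and 3 mRNAs had an unadjusted p under 0.05. The median log2 change of the 13 mRNAs was 0.17 in SW1783 and -0.05 in HT29.

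**Figure D3:**
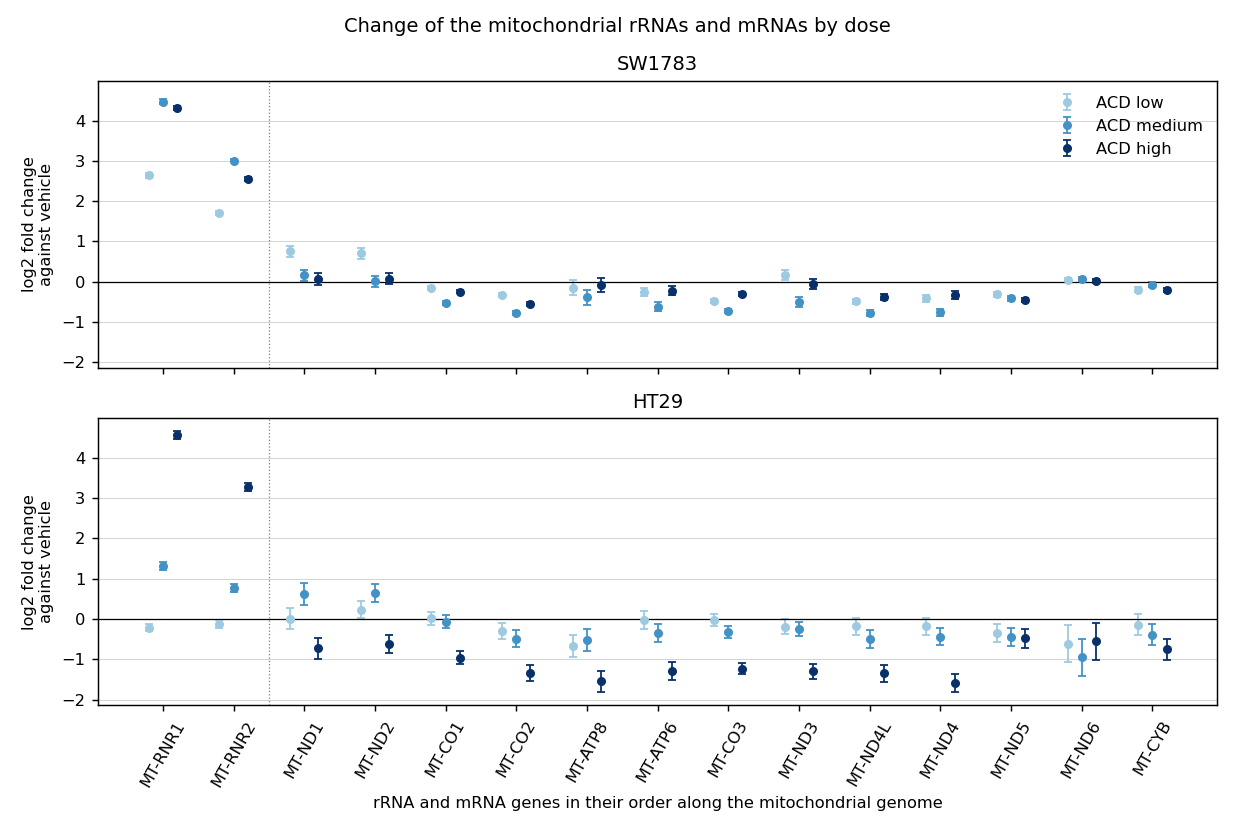
Log2 fold change against vehicle (± SE of the DESeq2 fit, n = 3 per group) of the rRNAs and the 13 mRNAs, placed in their order along the mitochondrial genome and not to distance. At each dose at which the rRNAs rose, MT-RNR1 lay above MT-RNR2 and both lay above every mRNA. MT-ND1 and MT-ND2 had positive values at the low dose in SW1783 (0.76 and 0.70) and at the medium dose in HT29 (0.62 and 0.65), while most genes after them lay below 0.

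Along the genome, the change thus stepped down from MT-RNR1 to MT-RNR2, again to MT-ND1 and MT-ND2, and was at or below 0 for most later genes, at the doses at which the rRNAs rose. The later genes did not continue this order. At the HT29 high dose MT-ND1 and MT-ND2 had -0.73 and -0.62, and the later MT-ND5 and MT-ND6 lay above both, with -0.48 and -0.56. At the SW1783 medium dose the last gene, MT-CYB, had -0.08 and MT-CO2 -0.78. At the low dose in SW1783 the values in this order were 2.64, 1.70, 0.76 and 0.70, and 9 of the 13 mRNAs had a negative value. MT-ND6, the only mRNA gene on the other strand, had -0.95 to 0.06 over the 6 ACD contrasts against vehicle and was called in none of them.

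The difference between the lines was tested for the mRNAs as an interaction of line and dose. At the high dose 8 of 13 were called, where 14.6% of all genes were, and each had the more negative change in HT29. The size was 0.68 ± 0.17 for MT-CO1 (adjusted p = 0.000528) to 1.44 ± 0.33 for MT-ATP8 (adjusted p = 0.000121). MT-ND1, MT-ND2, MT-ND5, MT-ND6 and MT-CYB were not called. At the low and medium doses 0 were called (0.265% and 3.33% of all genes), and the smallest adjusted p of an mRNA was 0.167 and 0.0541. No test was made of the rRNAs themselves.

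Counts of rRNA per count of mitochondrial mRNA joined both movements. In SW1783 the ratio of the summed rRNAs to the summed 13 mRNAs was 0.222 ± 0.001 in vehicle of batch B, 0.826 ± 0.046 at the low dose, 2.77 ± 0.12 at the medium dose and 1.82 ± 0.05 with the highest one (SD, n = 3). The HT29 values were 0.143 ± 0.007, 0.142 ± 0.024, 0.291 ± 0.005 and 3.46 ± 0.54. The single HT29 high libraries had 3.08, 3.23 and 4.08. Without replicate 2 of that group the mean was 3.58, the rRNA share of all counts was 11.89% and the ratio of MT-RNR2 to MT-RNR1 was 3.23. In both lines the rRNAs went from a minority of mitochondrial counts to the larger part, in SW1783 at the medium dose and in HT29 at the high dose.

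**Figure D4:**
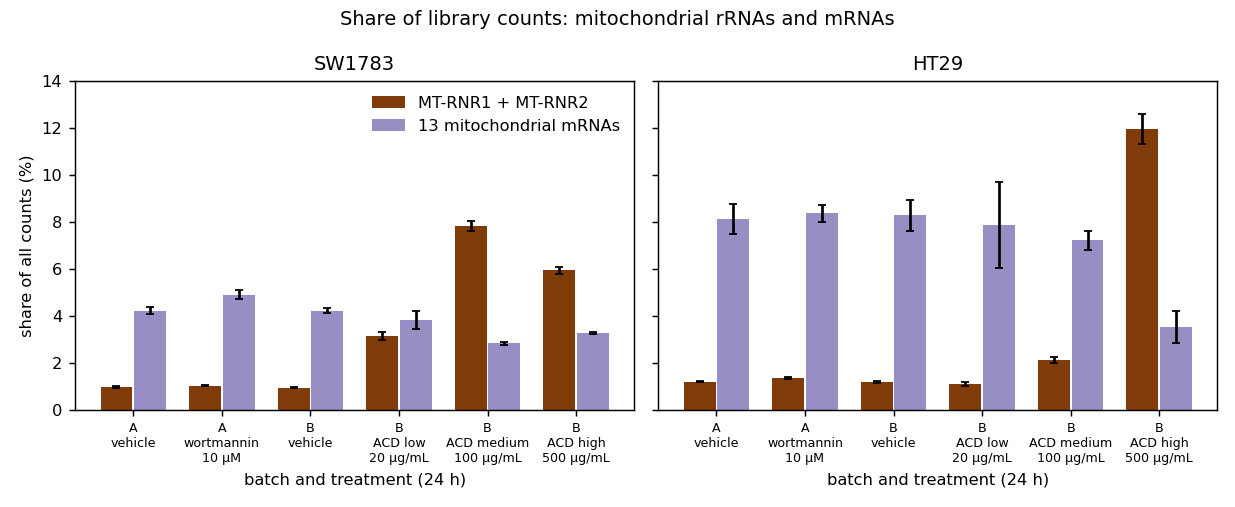
Percent of a library's counts that fell on the 2 rRNAs and on the 13 mitochondrial mRNAs, in SW1783 (left) and HT29 (right). Bars are means and error bars the SD of 3 replicates. At the HT29 high dose the rRNAs took 11.96% and the mRNAs 3.52%, against 1.18% and 8.27% in vehicle of batch B.

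Per kilobase of gene length, MT-RNR1 was place 14 of the 15 rRNA and mRNA genes in every vehicle and wortmannin group and in HT29 low, ahead of a single gene. It was place 5 in SW1783 low, 11 in HT29 medium and 2 in SW1783 medium, SW1783 high and HT29 high, where MT-RNR2 alone was above it. MT-RNR2 was place 3 to 7 without ACD, and place 1 in SW1783 at all 3 doses and in HT29 at the high dose. Its level was 58708 CPM per kilobase in HT29 high and 6723 in vehicle of batch B.

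Genes that make and handle the rRNAs changed by less than the rRNAs did. Of 15 genes of mitochondrial transcription, 1 was called higher and 3 lower at the SW1783 high dose, where 8.61% and 9.52% of all genes tested were. POLRMT, the mitochondrial RNA polymerase, rose by 0.74 ± 0.07 (adjusted p = 3.24e-27), from 731.7 ± 54.4 to 1226 ± 48.9 normalized counts. MTERF1, which binds within MT-TL1 just past the end of MT-RNR2, fell by 0.69 ± 0.11 (adjusted p = 2.55e-09), its relative MTERF2 by 0.70 ± 0.15 (adjusted p = 1.46e-05), and the elongation factor TEFM by 0.61 ± 0.13 (adjusted p = 1e-05). TFAM, which packages the genome and starts transcription, had -0.29 ± 0.05 and was not called. The list median was -0.02 at that dose.

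At the SW1783 medium and low doses 0 of these genes were called among 15 and 11 tested. An unadjusted p under 0.05 was found for 7 and 0 of them, and edgeR called 0. Of all genes tested, 2.34% and 1.47% were called higher and lower at the medium dose and 0.101% and 0.0225% at the low dose. In HT29 0 were called at the high, medium and low doses, and 0 by edgeR. There 1, 1 and 0 had an unadjusted p under 0.05, and values lay between -0.25 and 0.31. The HT29 shares of all genes were 1.28% higher and 1.61% lower (high), 0.431% and 0.406% (medium) and 0.149% and 0.168% (low). A count of 0 in a list of this size is near the background at each of these doses in both lines. Differences between the lines at the high dose were called for the 4 genes named (interaction adjusted p = 9.1e-09 for POLRMT, 8.14e-07 for MTERF1, 0.00291 for MTERF2 and 0.00416 for TEFM). The interaction was looked up for named genes only, which had been named for their SW1783 calls.

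Of 27 genes of rRNA modification and mitoribosome assembly, 1 was called, MPV17L2, an assembly factor of the large subunit, at the SW1783 high dose with 0.68 ± 0.08 (adjusted p = 1.1e-16), where 8.61% of all genes were called higher. Of 18 genes of mitochondrial RNA processing and decay, 1 was called higher and 1 lower there, beside the 8.61% and 9.52% of all genes. Neither list held a larger share of called genes than all genes did. SUPV3L1, the helicase of the mitochondrial RNA-degrading complex, rose by 1.08 ± 0.06 (adjusted p = 2.05e-81), and FASTKD5, which takes part in cutting transcripts that no tRNA borders, fell by 1.06 ± 0.11 (adjusted p = 7.81e-23). SUPV3L1 also rose from medium to high, by 0.76 ± 0.05 (adjusted p = 1.98e-42). At the SW1783 medium and low doses 0 genes of either list were called, with at most 8 and 7 at an unadjusted p under 0.05 and 0 by edgeR. In HT29 0 genes of either list were called at any dose, with at most 2 and 6 at an unadjusted p under 0.05 and 0 by edgeR. With wortmannin 0 genes of the transcription, modification and processing lists were called in either line, with 3 to 10 at an unadjusted p under 0.05 and 0 by edgeR. Of all genes, 1.73% and 0.991% were called higher and lower with wortmannin in SW1783 and 1.96% and 0.755% in HT29. The ACD shares were 2.34% and 1.47% (SW1783 medium), 0.101% and 0.0225% (SW1783 low), 1.28% and 1.61% (HT29 high), 0.431% and 0.406% (HT29 medium) and 0.149% and 0.168% (HT29 low). In lists of this size a count of 0 is near the background in these contrasts.

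Proteins of the mitoribosome, the partners of the rRNAs, gave 0 called genes among 32 of the small and 50 of the large subunit at every ACD dose in both lines, also by edgeR. Of all genes tested, 8.61% and 9.52% were called higher and lower at the SW1783 high dose, 2.34% and 1.47% at the medium and 0.101% and 0.0225% at the low dose. In HT29 the shares were 1.28% and 1.61% at the high dose, 0.431% and 0.406% at the medium and 0.149% and 0.168% at the low dose. Except at the SW1783 high dose, a count of 0 in a list of this size is near the background. Without HT29 high replicate 2, MRPL54 of the large subunit was called lower (-0.80 ± 0.18, adjusted p = 0.000208), a gene named after its values were seen. At the high dose 16 and 26 had an unadjusted p under 0.05 in SW1783, and 2 and 3 in HT29, and at the other doses 0 to 6 had one. No share of all genes was taken at that limit. An adjusted p under 0.05 was found for 15 of 32 and 25 of 50 at the SW1783 high dose, and for 9037 of the 19551 genes tested. The list medians at the high dose were -0.04 and -0.07 in SW1783 and 0.08 and 0.09 in HT29, against -0.01 and 0.01 over all genes tested. MRPL1, of the large subunit, was called lower with wortmannin in SW1783 (-0.59 ± 0.09, adjusted p = 3.42e-09), where 0.991% of all genes were. It lay just past the 1.5-fold limit, and edgeR did not call it. Without the fold limit, 14 of 32 and 28 of 50 had an adjusted p under 0.05 there, beside 4725 of 14125 genes tested. In HT29 these were 17 and 34, beside 2587 of 13372. The list medians with wortmannin were -0.18 and -0.19 in SW1783 and -0.26 and -0.28 in HT29, against -0.004 and -0.006 over all genes tested.

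Among the 9616 nuclear and other mitochondrial genes with a mean normalized count of at least 100 in each line, those most like the rRNAs over the 24 libraries of batch B, after centring on each line, were the same 5 for both. CHAC1, an enzyme that breaks down glutathione, had a Pearson correlation of 0.953 with MT-RNR1 and 0.946 with MT-RNR2. JDP2, a transcription factor of the AP-1 group, had 0.937 and 0.938, ST6GALNAC4, a sialyltransferase, 0.930 and 0.923, PSAT1, an enzyme of serine synthesis, 0.919 and 0.901, and DDIT4, an inhibitor of mTORC1 signalling, 0.914 and 0.913. The rRNAs correlated with each other at 0.994. These points share their vehicle groups, doses and libraries, and the values are a description with no test.

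CHAC1 had a log2 change of 0.69, 2.87 and 2.94 at the SW1783 low, medium and high doses and of 0.15, 0.57 and 2.99 in HT29. Its normalized count was 83.98 ± 7.48 in SW1783 vehicle of batch B, 610.8 ± 30.5 at the medium dose and 640.0 ± 37.0 at the high dose, so that it did not decline from medium to high as the rRNAs did. DDIT4 had 0.16, 1.20 and 1.57 in SW1783 and -0.06, -0.01 and 1.83 in HT29. At the SW1783 low dose, where MT-RNR1 had changed by 2.64, the 5 genes ranged from 0.13 to 0.69.

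Other RNAs without a poly(A) tail, genes of the nuclear ribosomal repeats and nuclear sequences that resemble the mitochondrial genome are given beside the rRNAs, and their part in the result was not tested. Of 26 other RNAs without a poly(A) tail, 3 of 6 tested were called higher at the HT29 high dose and 2 of 5 at the medium and at the low dose (2, 1 and 1 by edgeR), where 1.28%, 0.431% and 0.149% of all genes were. Without high replicate 2 the number at the high dose was 2, with RN7SL3 lost. In SW1783 1 of 2 tested was called lower at the medium dose and 1 of 5 at the high one, where 1.47% and 9.52% of all genes were. It was RN7SL1 at both doses, with -1.14 ± 0.36 (adjusted p = 0.00659 and 0.00372). That call was lost at the high dose without vehicle replicate 2 or in a fit on the compared groups alone, and at the medium dose without medium replicate 1, medium replicate 3 or vehicle replicate 2. In HT29, RN7SL3 was called at the high dose alone, with a mean normalized count of 4.9. RN7SL1 and RN7SL3 in these calls were named after their values were seen. RN7SL1 and RN7SL2, RNAs of the signal recognition particle that share much sequence, rose in HT29 at all 3 doses, also at the low dose, where the rRNAs did not rise. RN7SL2 had 9.1, 6.6 and 4.9 CPM in vehicle, 68.4, 81.2 and 119.1 at the low dose, 60.9, 96.9 and 76.8 at the medium dose and 64.7, 204.1 and 52.2 at the high dose, with log2 changes of 3.69 ± 0.56, 3.51 ± 0.56 and 4.13 ± 0.56 (adjusted p = 8.15e-08, 1.61e-07 and 3.32e-11). The highest of these was high replicate 2, and without it the high-dose change was 3.21 ± 0.35 (adjusted p = 8.43e-18). In SW1783, RN7SL2 had 5.0, 8.8 and 2.1 CPM in vehicle of batch B and 1.9, 2.1 and 1.4 CPM at the low dose. Its log2 change there was -1.50 ± 0.51 and that of RN7SL1 -1.59 ± 0.36, both without an adjusted p in the DESeq2 fit, which tested 0 genes of the list at that dose. In the SW1783 low-dose contrast 4 genes of the list had an unadjusted p under 0.05, and edgeR called 2, RN7SL1 and RN7SL2 (adjusted p = 0.00993 and 0.0279). At the SW1783 medium dose edgeR called the same pair.

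Genes inside the nuclear 45S ribosomal repeats were lower in HT29. Of the 8 listed, 3 were tested, of which 3 were called lower at the low and at the medium dose and 2 at the high dose (2, 3 and 2 by edgeR), where 0.168%, 0.406% and 1.61% of all genes were. ENSG00000280614 fell from 1075, 1015 and 938.1 CPM in vehicle to 108.4, 214.4 and 119.8 at the low dose, by 2.79 ± 0.28 on the log2 scale (adjusted p = 4.41e-19), had 160.3, 92.5 and 113.1 CPM at the medium dose, a change of -3.04 ± 0.28 (adjusted p = 4.06e-24), and was 103.3, 126.5 and 72.0 CPM at the high dose. It and ENSG00000280800 and ENSG00000281181 had equal counts in most libraries, so they share reads and are not separate measurements. ENSG00000280800 had 545.0 CPM in HT29 high replicate 2 and was not called at that dose, but was without that library (-2.67 ± 0.40, adjusted p = 2.5e-09), which made 3 called genes. In SW1783, 2 of the 8 listed repeat genes were tested and 0 called, with 2 at an unadjusted p under 0.05 at the low dose and 1 called by edgeR at each of the other doses. Of all genes, 8.61% and 9.52% were called higher and lower at the high dose there. The shares were 2.34% and 1.47% at the medium and 0.101% and 0.0225% at the low dose, so that 0 of 2 is near the background. ENSG00000280614 had 26.2 to 58.3 CPM in SW1783 of batch B.

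Reads assigned to 391 nuclear pseudogene copies of mitochondrial genes amounted to 0.336% to 1.43% of the counts of the mitochondrial genome in any library. These copies were picked by a pattern of their names, which no rRNA copy in the table matched. The humanin-like nuclear copies of MT-RNR2 are named otherwise and lay outside the list, so its lack of rRNA copies was set by the search. At the HT29 high dose 3 of 9 copies tested were called lower (2 by edgeR), where 1.61% of all genes were: MTND4P12 (-1.85), MTATP6P1 (-0.98) and MTCO1P12 (-0.83). At the HT29 low dose 0 of 8 were called (2 with an unadjusted p under 0.05, 0 by edgeR), where 0.149% and 0.168% of all genes were called higher and lower. In SW1783 0 of 10, 3 and 3 tested were called at the high, medium and low doses (1 with an unadjusted p under 0.05 at each, 0 by edgeR). Of all genes, 8.61% and 9.52% were called higher and lower at the high, 2.34% and 1.47% at the medium and 0.101% and 0.0225% at the low dose. Counts of 0 are near the background there. From medium to high 1 of 6 was called higher (4.56% of all genes), MTCO1P28, with a mean normalized count of 11.2 and named after its values were seen. MTND2P28, a copy of MT-ND2, was called higher at the HT29 medium dose by 0.98 ± 0.19 (adjusted p = 9.93e-05), 1 of 8 tested (0.431% of all genes). From medium to high 2 of 5 were called lower (0.328% of all genes; 1 by edgeR), MTND2P28 with -1.34 ± 0.19 (adjusted p = 3.15e-09) and MTATP6P1 with -0.69 ± 0.18 (adjusted p = 0.00871). The deposited values cannot show how many rRNA reads were given to such copies.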

How the data were processed

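RNA sequencing of SW1783 and HT29 cells gave 36 libraries in 12 groups of 3. The authors prepared mRNA libraries with a directional kit, sequenced paired reads of 100 bases, and processed them with FastQC 0.11.9, Trim Galore 0.6.5, STAR 2.7.3a and RSEM 1.3.3 per the labels' processing notes (the methods name other versions of Trim Galore and STAR). The genome is called GRCh38 and also hg19 in the methods. Strand setting, rRNA removal and handling of multi-mapped reads were not given in the sources used here, and such reads can shift counts between copies. The deposited table holds RSEM expected counts per gene, not normalized, and 8.84% of values were not whole. They were rounded here.

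MT-RNR1 and MT-RNR2, and the gene lists, were chosen with earlier results of these data known. Genes with 0 counts in all libraries were dropped. Levels are CPM (the usual scaling to all counts of the library) or counts divided by DESeq2 size factors. The study's methods name the DESeq2 Wald test, which was run here two-sided with DESeq2 1.42.0 in R 4.3.3, with Benjamini-Hochberg adjustment over all genes of a contrast, on the 12 batch B or 6 batch A libraries of a line. Interactions of line and dose used the 24 batch B libraries. A gene was called with an adjusted p under 0.05 and a log2 fold change beyond 0.585 in size. The fit was tested on simulated data. Alternatives were TMM or non-mitochondrial size factors, edgeR 4.0.16 quasi-likelihood, a filter of 10 counts in 3 libraries, a replicate block, fits on the compared groups only, no fold limit, CPM, and leaving out each replicate. Named genes were both rRNAs, any of the 13 mitochondrial mRNAs, up to 4 called genes per other list with the largest change and a mean normalized count of at least 100, and the 5 genes most correlated with each rRNA on log2(normalized count + 1). The repeat and pseudogene lists were added after the table had been examined. Gene names came from GENCODE v44, and 56558 of 60675 identifiers matched. Sequences are those of GENCODE v44 transcripts on GRCh38. The humanin-like nuclear copies of MT-RNR2 were not analysed here. Contrasts were made within a batch only. Counting intervals cover counting error only.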

Additional observations from a re-analysis of the deposited data

Results flagged for a closer look

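Among the mitochondrial mRNAs and the list genes already named for a call, the change differed between SW1783 and HT29 for the following genes. The test was the interaction of line and dose (DESeq2, adjusted p under 0.05 and a difference over 1.5-fold). Differences are SW1783 minus HT29 on the log2 scale. At the high dose these were 8 mitochondrial mRNAs, with 0.74 for MT-CO2, 0.68 for MT-CO1, 1.20 for MT-ND3, 1.22 for MT-ND4, 1.02 for MT-ATP6, 0.89 for MT-CO3, 0.93 for MT-ND4L and 1.44 for MT-ATP8. In all 8 the HT29 change was the more negative.

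Among nuclear genes of mitochondrial transcription and RNA decay, the difference at the high dose was 0.65 for POLRMT, 0.91 for SUPV3L1, -0.84 for MTERF2, -0.86 for MTERF1, -0.74 for TEFM and -1.12 for FASTKD5. Only genes of these lists already named for a call in a contrast were looked up, and all such calls were in SW1783. That each was called in SW1783 was therefore set by the selection. Their HT29 changes at the high dose lay between 0.01 and 0.14.

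RN7SL2 differed by -5.21, -4.72 and -4.78 at the low, medium and high doses and RN7SL1 by -4.29, -3.69 and -4.76. ENSG00000280614, in the 45S repeats, differed by 2.20, 3.00 and 3.01, and ENSG00000280800, which shares its reads, by 3.42 at the medium dose.

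For the rRNAs the libraries of the lines moved in opposite directions without overlap in 3 cases, and these differences were not tested. MT-RNR1 changed by 2.64 in SW1783 and -0.22 in HT29 at the low dose. From the medium to the high dose MT-RNR1 changed by -0.17 in SW1783 and 3.25 in HT29, and MT-RNR2 by -0.45 and 2.51. Groups of 3 libraries were too small for a rule on outlying libraries.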

How the results depend on the processing

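The direction of both rRNA changes held under every alternative in all ACD contrasts, and only the wortmannin changes of MT-RNR1 changed sign, about 0. The CPM scale was the setting that moved rRNA values by more than the replicate SD. With CPM of all counts MT-RNR1 changed by 4.19 and MT-RNR2 by 2.44 at the SW1783 high dose, by 4.36 and 2.90 at the medium dose, by 4.42 and 3.13 at the HT29 high dose, and by 3.11 and 2.37 from medium to high in HT29. With CPM outside the mitochondrial genome the SW1783 high values were 4.25 and 2.50. Counts per kilobase left each change of the ratio as it was.

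The number of called genes moved more. Without the fold limit there were 9037, 4153, 311, 6741 and 4725 in SW1783 (high, medium, low, high against medium, wortmannin) and 1253, 345, 101, 253 and 2587 in HT29, and called mitochondrial mRNAs were 7, 8, 9, 7 and 8 in SW1783 and 1 with wortmannin in HT29. With edgeR there were 30 genes at the SW1783 low dose against 11, 687 with wortmannin against 384, 18 at the HT29 low dose against 49, and 6 mRNAs from medium to high in HT29 against 10. With fits on the compared groups alone there were 6 genes at the SW1783 low dose, 300 at the HT29 high dose against 480, 69 from medium to high against 104, and 2 mRNAs at the HT29 medium dose.

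Replicate numbers did not pair the samples. Deviations of same-numbered treated and vehicle libraries correlated at -0.118 to -0.007 (SW1783) and -0.459 to 0.326 (HT29) in batch B, and 0.011 to 0.053 and -0.055 to 0.154 in batch A. With a replicate block there were 252 genes with wortmannin in SW1783, 209 in HT29 against 363, 1 mRNA at the HT29 medium dose, and 2 mRNAs for the interaction at the medium dose, an alternative added after the data had been seen, as were the other alternatives of the interaction. The block moved neither rRNA in any contrast by more than the replicate SD.

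Leaving out 1 replicate at a time, the log2 change of MT-RNR1 kept close to its value. In SW1783 it ran from 2.58 to 2.67 (low), 4.44 to 4.50 (medium), 4.28 to 4.33 (high), -0.19 to -0.14 (high against medium), -0.02 to 0.01 (wortmannin). In HT29 it ran from -0.26 to -0.15 (low), 1.28 to 1.38 (medium), 4.53 to 4.62 (high), 3.19 to 3.29 (high against medium), -0.07 to 0.02 (wortmannin). The change of MT-RNR2 was alike. In SW1783 it ran from 1.65 to 1.73 (low), 2.98 to 3.03 (medium), 2.53 to 2.58 (high), -0.48 to -0.43 (high against medium), 0.04 to 0.11 (wortmannin). In HT29 it ran from -0.17 to -0.05 (low), 0.73 to 0.81 (medium), 3.23 to 3.34 (high), 2.46 to 2.58 (high against medium), 0.11 to 0.19 (wortmannin). The ratio moved by less than its replicate SD in each case. The number of called genes stayed within 1.5 times of its value except at the low doses, with 5 to 12 (SW1783) and 26 to 47 (HT29) there. The lowest of these at the SW1783 low dose, 5, was without low replicate 1 and there were 7 without low replicate 2. At the HT29 low dose 26 were left without vehicle replicate 2 and 32 without low replicate 3. The number of called mitochondrial mRNAs was 0 to 2 at the SW1783 low dose, 5 at the SW1783 medium dose, 8 to 9 at the HT29 high dose, 6 to 10 from medium to high in HT29 (6 without medium replicate 1), 0 to 1 at the HT29 low dose (1, MT-ATP8, without vehicle replicate 3) and 0 elsewhere. Without HT29 high replicate 2, 573 genes were called at that dose against 480, of which 378 were shared. The interactions then gave 48, 574 and 2792 genes at the low, medium and high doses against 33, 503 and 2690, and 9 mRNAs at the high dose. The counting error of an rRNA value was at most 0.865%.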
